A study of Mus musculus with 6 samples.

Results

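The urothelial luminal genes described here are Pparg, Gata3, Foxa1, Elf3, Klf5, Grhl3, Upk1b, Krt20 and Muc1. They were taken from a list of 10 symbols of luminal bladder differentiation, matched to the Entrez numbers of the count table through a RefSeq table. Of the 10, 9 were found among the 15295 genes counted, all 9 passed the filter on low counts, and Upk3a is not analysed here. The list was chosen from the comparison between the groups, on the fold changes of Pparg and Muc1, which are lower with the Ddr2 shRNA. For this reason differences between the groups are a description for the 9 genes, with no test.

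Bulk RNA sequencing was done on 6 tumours labelled as xenografts of NA13, a mouse bladder cancer line, with C57BL/6 given as the strain. In 3 tumours, named control, the cells had received a scrambled shRNA, and in 3, named shDdr2, an shRNA aimed at Ddr2, a collagen-binding receptor tyrosine kinase. All 6 tumours also carried the treatment label IgG, and no label gives the host's age, the tumour site or the animal each sample came from. If samples shared an animal, the spread between them is partly technical. Each library holds RNA of tumour and host cells together, so fewer cells of a type and less RNA per cell cannot be told apart.

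The libraries held 15560571 to 19522985 counts. The libraries labelled shDdr2 did not have lower mean Ddr2. CPM is the count scaled to a common library total. Mean Ddr2 was 14.5 ± 7.28 CPM for control and 17.5 ± 11.9 CPM for the other group (SD, n = 3 each). Host cells add RNA to each library, so Ddr2 in the tumour cells alone was not measured. Every direction here is therefore between libraries as labelled. On the first principal component, with 50.1% of the variance, shDdr2 1 lay at -85.2 and the other 5 libraries between -16.3 and 45.7. On the second, control 1 lay at -55.7 and the other 5 between -6.75 and 34.3. Results that rest on these 2 libraries are given with and without them.

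The urothelium is built of basal cells, intermediate cells and, facing the lumen, umbrella cells. PPARG, a lipid-activated nuclear receptor that binds DNA with a retinoid X receptor, acts with GATA3, FOXA1, ELF3, KLF5 and GRHL3 to switch on the luminal programme. Umbrella cells carry uroplakin plaques, keratin 20 and membrane mucins on or beneath their surface, and basal cells carry keratins 5 and 14 and the factor p63. In bladder cancer the balance of these programmes is used to separate luminal from basal tumours.

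The stretches upstream of 3 of the genes are shown because Pparg and Muc1 are the pair whose values lay apart between the groups, and Krt20 has the highest level of the 9. Each is the 250 bases before a start site in RefSeq (GRCm38.p6), read 5′ to 3′ on the gene's strand, with motif matches in capitals, and no GENCODE M21 exon overlaps any of them. That for Pparg lies at chr6:115421816-115422065 (plus strand), before the third of 3 starts listed for the gene; the other 2 stretches overlap Pparg exons and are not shown. That for Krt20 lies at chr11:99438154-99438403 (minus strand) and that for Muc1 at chr3:89228806-89229055 (plus strand). Counts are per gene and do not tell which Pparg start was used.
Pparg: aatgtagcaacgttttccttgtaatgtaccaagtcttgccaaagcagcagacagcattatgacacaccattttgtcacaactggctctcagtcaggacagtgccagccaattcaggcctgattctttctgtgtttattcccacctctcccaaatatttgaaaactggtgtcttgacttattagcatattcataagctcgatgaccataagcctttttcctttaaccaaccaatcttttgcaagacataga
Krt20: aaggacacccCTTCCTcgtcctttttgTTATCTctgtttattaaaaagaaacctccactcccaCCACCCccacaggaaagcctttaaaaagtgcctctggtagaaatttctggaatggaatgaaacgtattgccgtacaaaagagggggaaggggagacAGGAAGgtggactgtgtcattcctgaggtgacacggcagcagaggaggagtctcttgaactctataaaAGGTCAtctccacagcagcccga
Muc1: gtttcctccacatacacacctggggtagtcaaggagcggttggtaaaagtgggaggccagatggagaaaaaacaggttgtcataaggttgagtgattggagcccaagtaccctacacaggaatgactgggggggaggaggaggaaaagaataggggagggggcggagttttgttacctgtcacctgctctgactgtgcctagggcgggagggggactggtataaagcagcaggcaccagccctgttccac

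Motifs were searched on both strands as exact letters, with overlaps between motifs allowed. Klf5 and Upk1b had no upstream stretch in the source used and were not searched. AGGTCA, the hexamer that nuclear receptors bind, was in 14.02% of 32851 upstream stretches, and AGGTCANAGGTCA, 2 direct copies with 1 base between, was in 0.0335%. For factors of the Gata3 family the letters searched were AGATAA, which were in 9.99%. Of the forkhead motifs, TGTTTAC was in 3.17% and, as the variant form, TGTTTGC was in 4.30%. AGGAAG (ETS factors) was in 29.5%, CCACCC (KLF) in 28.1% and ACCGGT (grainyhead) in 1.86%. Krt20 held AGGTCA starting 23 bases before its start site, AGGAAG on both strands, AGATAA on the opposite strand and CCACCC. Muc1 and the Pparg stretch shown held none of these letters. Both other Pparg stretches held AGGTCA, and the first also held CCACCC on the opposite strand. Foxa1 held TGTTTAC on the opposite strand, Gata3 held CCACCC on the opposite strand at 3 places and Elf3 at 1, and Grhl3 held it on its own strand at 2 places. The Foxa1 and Elf3 stretches overlap exons of their own genes, and the Gata3 stretch overlaps exon sequence of antisense Gm13256. A match is a run of letters and was not tested as a binding site.

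Per length of exon, keratin 20 was the most abundant of the 9 transcripts and Pparg the least. Levels between genes are given as CPM per kilobase of exon, averaged over the 6 libraries. Krt20 was at 92.1, Foxa1 at 49.4, Elf3 at 47.6, Upk1b at 33.1, Gata3 at 32.2, Klf5 at 24.7, Grhl3 at 17.0, Muc1 at 8.32 and Pparg at 2.80 CPM per kilobase. Krt20 thus lay at the 96.8th percentile of the genes tested, Muc1 at the 56.2nd and Pparg at the 29.5th. The ranges of the 6 libraries overlapped between every pair of neighbours in this order. Within single libraries, Gata3 was above Klf5, Grhl3 above Muc1 and Muc1 above Pparg in 6 of 6, while Krt20 was above Foxa1 in 4 and Foxa1 above Elf3 in 3.

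**Figure D1:**
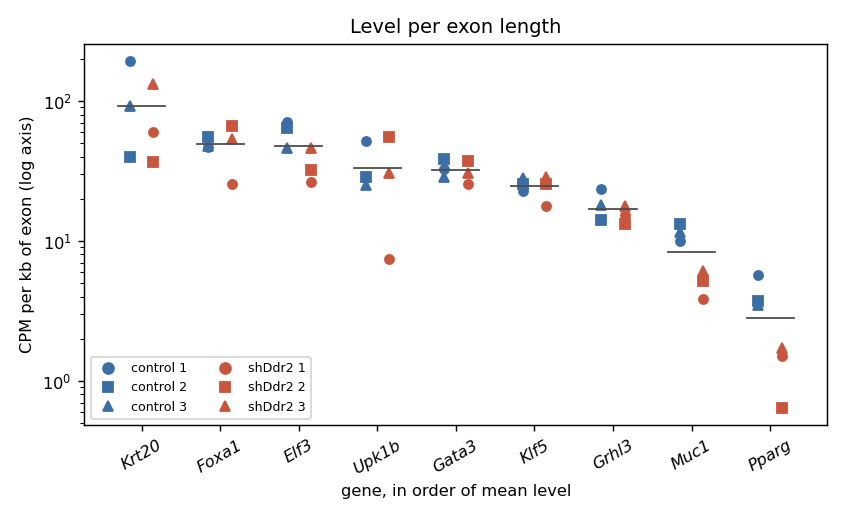
Level of each gene in each library as CPM per kilobase of exon, on a log axis, with genes in order of their mean over 6 libraries (horizontal lines); blue marks are control and red marks shDdr2 libraries, and shapes give the replicate number. Krt20 and Upk1b spread widely, and Pparg, with a mean of 2.80, lies lowest.

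Against these levels, the basal keratins were far more abundant, and Upk2, the only other uroplakin measured, was scarce. Krt5 and Krt14, which pair in basal cells, were at 2499 and 2728 CPM per kilobase, against 92.1 for Krt20. Trp63, the gene of the basal factor p63, was at 66.8 CPM per kilobase, and Krt13, a keratin of intermediate urothelium and other stratified epithelia, was at 883. Upk2, a uroplakin of the umbrella cell plaque, was at 2.09 to 4.19 CPM over the 6 libraries, and Upk1a, Upk3a and Upk3b are not analysed here. The luminal transcription factors, keratin 20 and Upk1b were thus measured beside far more abundant basal keratins, while Upk2 was low.

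Pparg (chromosome 6, 115360951 to 115490399, plus strand, GRCm38, as for all positions below) is the nuclear receptor of the group. It was at 16.8, 10.99 and 10.3 CPM in control 1 to 3, with 312, 184 and 164 reads counted. In shDdr2 1 to 3 it was at 4.48, 1.90 and 5.05 CPM, with 62, 39 and 88 reads counted. The groups did not overlap: the lowest control value was well above the highest value among the libraries labelled shDdr2, with control 1 highest and shDdr2 2 lowest. Means were 12.7 ± 3.58 and 3.81 ± 1.68 CPM (SD, n = 3 each), 3.34-fold lower in the libraries labelled shDdr2. The log2 fold change from the fit over all genes was -1.74 (SE 0.44, 95% interval -2.77 to -0.72), and it was between -2.01 and -1.41 when any 1 library was left out.

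Muc1 (chromosome 3, 89229057 to 89233381, plus strand) encodes a membrane mucin of the apical surface. It was at 23.3, 31.2 and 27.3 CPM in control 1 to 3 and at 8.95, 12.1 and 14.2 CPM in shDdr2 1 to 3. The groups did not overlap here either, and the libraries within each group lay close together, with a coefficient of variation of 14.5% for control and 22.6% for shDdr2. Means were 27.3 ± 3.94 and 11.8 ± 2.66 CPM (SD, n = 3 each), 2.32-fold lower in the libraries labelled shDdr2. The fit gave a log2 fold change of -1.21 (SE 0.26, 95% interval -1.82 to -0.61), and -1.37 to -1.05 with any 1 library left out. Without control 1 and shDdr2 1, the log2 fold change was -1.16 for Muc1 and -1.63 for Pparg.

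The edgeR quasi-likelihood test, adjusted by Benjamini-Hochberg over 14498 genes, called 0 genes (0.00%) lower and 0 (0.00%) higher. At an unadjusted p under 0.05 there were 65 lower genes (0.448%) and 144 higher (0.993%), and DESeq2 called 6 lower and 34 higher at an adjusted p under 0.05. Values lay apart between the groups in 2 of the 9 genes, both lower, against 4.32% of all genes tested in either direction and 2.11% in the lower direction. Since the list was chosen from that contrast, nothing is read from the share.

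**Figure D2:**
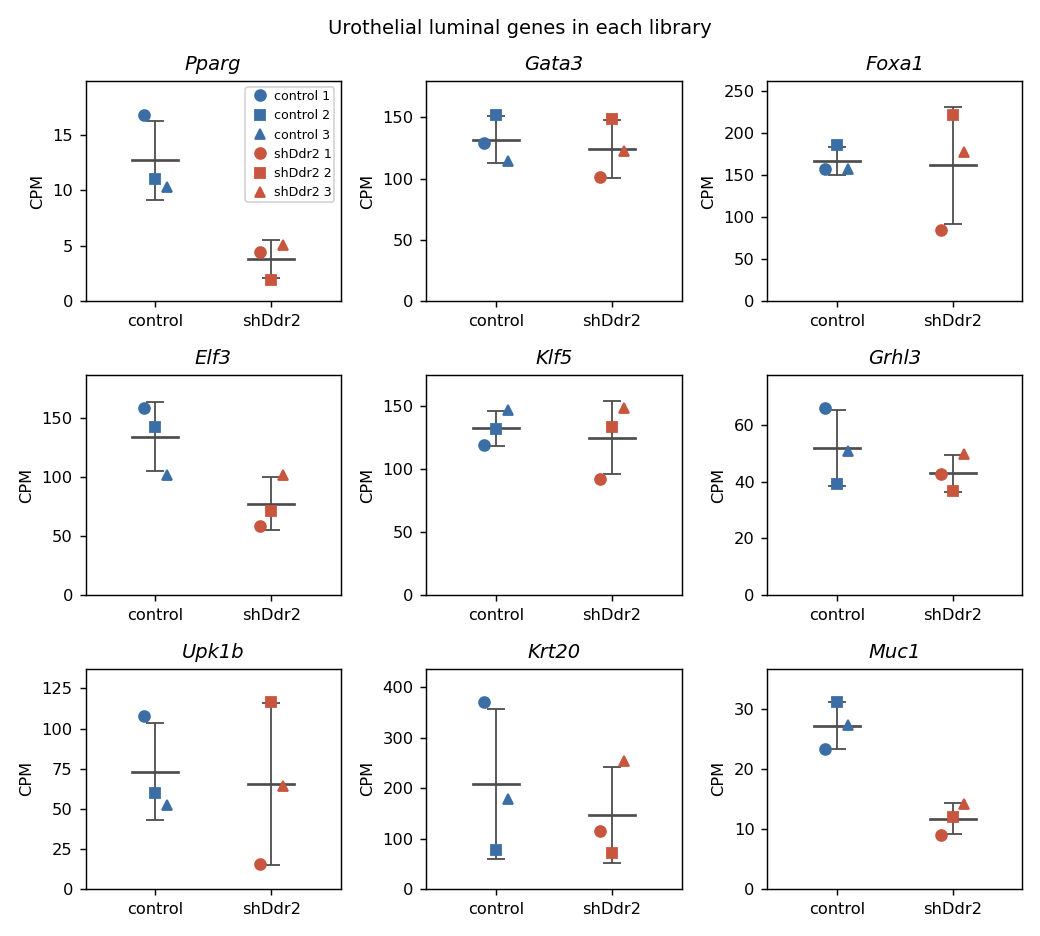
CPM of each gene in every library, with group means (thick lines) and SD (thin bars, n = 3); shapes give the replicate number. Pparg and Muc1 are the 2 genes whose groups do not overlap, and in Elf3 control 3 and shDdr2 3 meet near 102 CPM.

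Elf3 (chromosome 1, 135253575 to 135258568, minus strand), an epithelial ETS factor, had the next lower values in the libraries labelled shDdr2. It was at 158, 142 and 102 CPM in control 1 to 3 and at 58.6, 71.1 and 102 CPM in shDdr2 1 to 3. The groups met in 1 place only, since control 3 at 101.8 CPM lay just under shDdr2 3 at 102.01 CPM. The fit gave a log2 fold change of -0.79 (SE 0.28, 95% interval -1.45 to -0.14), and -1.05 to -0.63 with any 1 library left out. By replicate number, the log2 difference was -1.43, -0.999 and 0.0034 for numbers 1, 2 and 3. Elf3 shares exon sequence with an antisense gene, Gm26642, and the strand setting of the counting is not given in the sources used here.

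Gata3, Foxa1, Klf5 and Grhl3 had fitted log2 fold changes closer to 0. Gata3 (chromosome 2, 9857078 to 9890034, minus strand), a zinc finger factor of urothelium, was at 129, 152 and 114 CPM in control 1 to 3 and at 102, 149 and 123 CPM in shDdr2 1 to 3. Its log2 fold change was -0.08 (SE 0.22, 95% interval -0.60 to 0.43), and shDdr2 1 was the lowest library. Gata3 shares exons with antisense Gm13256 and same-strand 9230102O04Rik, so some of its counts are uncertain.

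Foxa1 (chromosome 12, 57540628 to 57546916, minus strand), a forkhead factor that opens chromatin, was at 157, 186 and 158 CPM in control 1 to 3. In shDdr2 1 to 3 it was at 85.2, 222 and 178 CPM. The libraries labelled shDdr2 held both the lowest and the highest Foxa1 value of the 6, and the log2 fold change was -0.04 (SE 0.34, 95% interval -0.85 to 0.76). Without shDdr2 1 it was 0.26.

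Klf5 (chromosome 14, 99298691 to 99315036, plus strand), a Krüppel-like factor of proliferating epithelium, was at 119, 132 and 147 CPM in control 1 to 3 and at 92.4, 134 and 148 CPM in shDdr2 1 to 3. Klf5 was lowest in shDdr2 1 and highest in shDdr2 3, and the groups overlapped. Grhl3 (chromosome 4, 135541888 to 135573630, minus strand), a grainyhead factor of umbrella cell and epidermal maturation, was at 65.9, 39.3 and 50.7 CPM in control 1 to 3 and at 42.6, 36.7 and 49.7 CPM in shDdr2 1 to 3. Control 1 was the highest Grhl3 value and the other 5 lay close together. Their log2 fold changes were -0.09 (SE 0.23, 95% interval -0.63 to 0.46) and -0.27 (SE 0.25, 95% interval -0.86 to 0.31). For Grhl3 it was -0.05 without control 1 and -0.44 without control 2, and for Klf5 it was 0.09 without shDdr2 1.

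Upk1b and Krt20, the umbrella cell genes, varied most within the groups. Upk1b (chromosome 16, 38773184 to 38800328, minus strand), a tetraspanin of the uroplakin plaque, was at 108, 59.7 and 52.0 CPM in control 1 to 3 and at 15.5, 116 and 63.9 CPM in shDdr2 1 to 3. Its range among the libraries labelled shDdr2 was 7.53-fold, and shDdr2 1 and shDdr2 2 were its lowest and highest values. The log2 fold change of Upk1b was -0.16 (SE 0.65, 95% interval -1.68 to 1.35), and it was 0.30 without shDdr2 1, 0.23 without control 1 and -0.88 without shDdr2 2.

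Krt20 (chromosome 11, 99428403 to 99438150, minus strand), the umbrella cell keratin, was at 370, 76.2 and 179 CPM in control 1 to 3 and at 115, 70.5 and 254 CPM in shDdr2 1 to 3. It ranged 4.86-fold among control libraries and 3.61-fold among those labelled shDdr2, and the number 2 library was the lowest of each group. The log2 fold change of Krt20 was -0.51 (SE 0.64, 95% interval -2.01 to 1.00). It was 0.21 without control 1 and -1.17 without shDdr2 3. The within-group SD of log2 CPM was 1.13 for Upk1b and 1.04 for Krt20, at the 96.1st and 94.9th percentile of the genes tested, where the median gene had 0.40. Gata3, Klf5, Muc1, Grhl3 and Elf3 varied less than the median gene, with SDs of 0.24, 0.28, 0.28, 0.30 and 0.37.

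**Figure D3:**
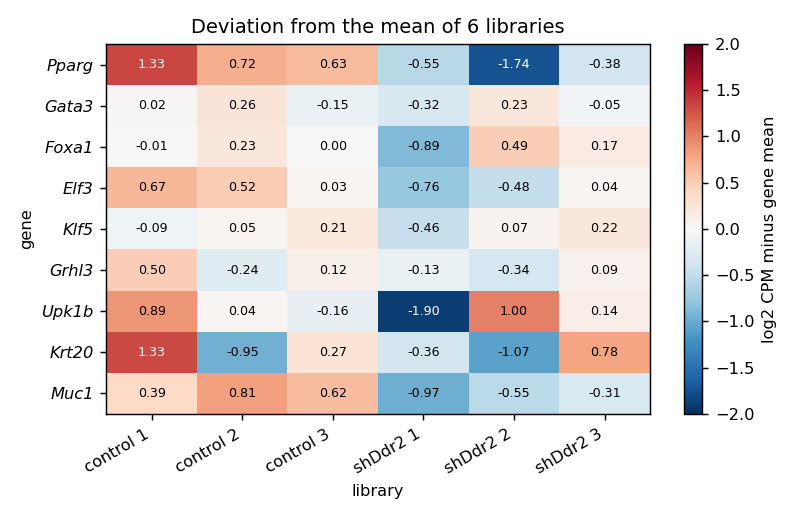
Deviation of each gene's log2 CPM in each library (columns) from its mean over 6 libraries; red is above and blue below the mean. All 9 genes are below their mean in shDdr2 1, with Upk1b at -1.90, while Krt20 and Upk1b go in opposite directions in shDdr2 2.

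The 9 genes did not follow 1 common order of libraries. In shDdr2 1 all 9 were below their own mean, 6 of them at their lowest value, and the median deviation was -0.55 log2 units. In shDdr2 2, 5 genes were below their mean, with Pparg at -1.74 and Krt20 at -1.07, while Upk1b at 1.00 and Foxa1 at 0.49 were at their highest. In shDdr2 3, 6 of 9 were above their mean, though Pparg and Muc1 were not. Control 1 held the highest value of 4 genes (Pparg, Elf3, Grhl3 and Krt20).

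All 9 genes had a fitted log2 fold change below 0, as did 42.9% of all genes tested, and the median of all genes was 0.04. That count rested on the libraries that stand apart. Without shDdr2 1 it was 5 of 9 (Pparg, Elf3, Grhl3, Krt20 and Muc1), and without control 1 and shDdr2 1 together it was 4 of 9. Without control 1 and without control 2 it was 7 of 9. The log2 differences of the same-numbered libraries were below 0 at all 3 numbers for Pparg, Muc1 and Grhl3, at 2 for Gata3, Elf3 and Krt20, and at 1 for Foxa1, Klf5 and Upk1b.

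**Figure D4:**
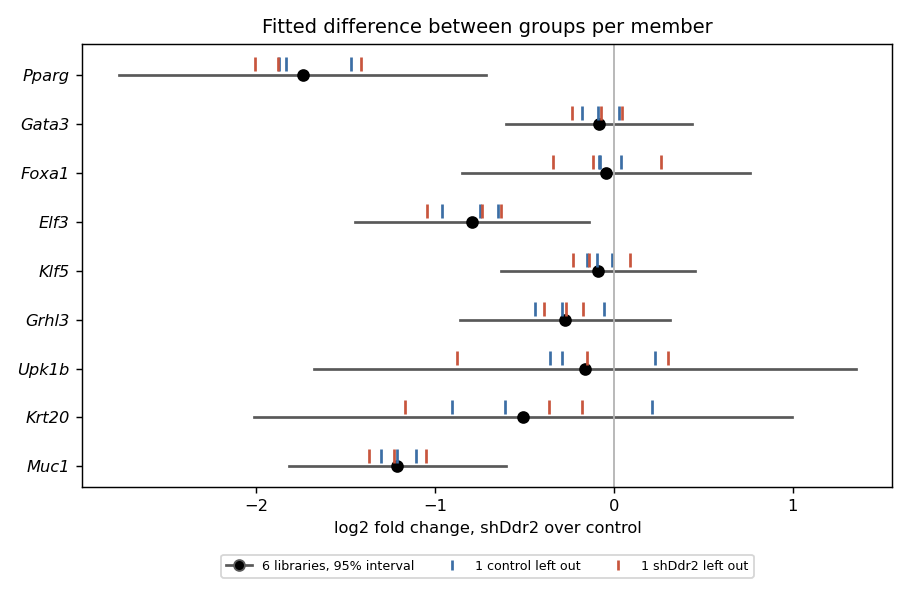
Fitted log2 fold change of each gene (dot) with its 95% interval (line), and the value with each library left out (blue ticks for controls, red for shDdr2). Pparg, Elf3 and Muc1 stay below 0 with any library left out, at -1.41, -0.63 and -1.05 at the nearest, as does Grhl3 at -0.05, and the other 5 genes cross 0.

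Markers of epithelial cells also had mostly lower values in the libraries labelled shDdr2. Of 16 markers tested, 13 had a fitted value below 0, 5 of them without overlap between the groups (2.11% of all genes tested lay apart and lower), and the median was -0.18. Their summed level was 4119 to 5100 CPM in control libraries and 3475 to 4448 CPM in those labelled shDdr2. The mean of their log2 CPM was 0.40 log2 units lower (difference -0.40), with shDdr2 1 lowest at 6.43. The difference was -0.25 without shDdr2 1 and -0.19 without control 1 and shDdr2 1. The markers with the largest fitted differences were Krt8, Cldn7 and Krt18, at -1.41, -1.30 and -0.66, which are luminal genes as well. Krt8 was at only 0.289 CPM in shDdr2 1. These genes weigh on the mean and on every value set against it, and the mean without them was not computed. Set against that mean in each library, Pparg differed by -1.39 and Muc1 by -0.83, still without overlap, and Elf3 by -0.41. On that scale Gata3, Klf5, Foxa1 and Grhl3 were at 0.30, 0.29, 0.25 and 0.14, with the opposite sign to that on CPM, and Krt20 and Upk1b were at -0.03 and -0.11. Without control 1 and shDdr2 1, Pparg was at -1.55, Muc1 at -0.96 and Elf3 at -0.31 on that scale, and Gata3, Klf5, Foxa1 and Grhl3 at 0.22, 0.20, 0.40 and 0.12. Upk1b and Krt20 changed sign there, to 0.82 and 0.39. With 1 library left out, Grhl3 was at -0.0009 without shDdr2 1 and -0.019 without control 2, and Foxa1 at -0.005 without shDdr2 2. Upk1b was at 0.56 without shDdr2 1 and 0.14 without control 1. Krt20 was at 0.46 without control 1, 0.42 without shDdr2 2 and 0.04 without control 3. Pparg, Muc1, Elf3, Gata3 and Klf5 kept their sign.

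Markers of other cell types, among them types known to express Pparg or Gata3, were summed in each library. Of 12 adipocyte markers 5 were tested, all 5 with fitted values above 0, and Adipoq, Plin1 and Lep are not analysed here. Their sum was 25.4 to 42.7 CPM in control libraries and 50.2 to 67.4 CPM in those labelled shDdr2. Fabp4, the most abundant of the 5, overlapped between the groups. It was at 19.7, 35.1 and 27.5 CPM in control 1 to 3 and at 47.2, 14.6 and 36.5 CPM in shDdr2 1 to 3. Car3 also overlapped, and was highest, at 28.0 CPM, in shDdr2 2, the library with the highest skeletal muscle sum. The 11 macrophage markers summed to 546 to 952 and 666 to 1077 CPM, with 6 fitted lower and 5 higher, and the 11 markers of T cells and innate lymphoid cells to 67.1 to 155 and 74.6 to 143 CPM, with 7 lower and 4 higher. The 11 keratinocyte markers summed to 837 to 1311 and 892 to 3944 CPM, the highest in shDdr2 1. The 12 skeletal muscle markers summed to 9.92 to 124 and 482 to 3736 CPM, with 11 of 12 apart and higher, against 2.21% of all genes tested. The 10 fibroblast markers summed to 2767 to 5975 and 1657 to 11296 CPM, with shDdr2 1 lowest. The 3 hair follicle markers tested summed to 30.9 to 47.9 and 32.3 to 50.7 CPM, and the 3 mammary markers tested to 150 to 412 and 80.7 to 185 CPM. Lpl among the adipocyte, Lyz2 among the macrophage and Kprp among the keratinocyte markers were also apart and higher. Without control 2, the split turned to 10 of 11 higher for macrophages and 9 of 11 for T cells and innate lymphoid cells. The part of these cells in the values of the 9 genes was not tested.

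Most other luminal genes had values below 0 with all 6 libraries in the fit, and claudins and simple-epithelial keratins were among those whose groups lay apart. Of 25 further urothelial and luminal genes, 18 were tested, 0 were called, 15 had fitted values below 0, and the median log2 fold change was -0.39. This rested on the libraries that stand apart: the median was -0.15 without control 1, -0.23 without shDdr2 1 and 0.06, with 7 of 18 below 0, without both. Without shDdr2 3 it was -0.71. Values were apart and lower in 5 of them, against 2.11% of all genes: Krt8, Krt18, Cldn4, Cldn7 and Gdf15. The list shares Krt8, Krt18 and Cldn7 with the epithelial markers. Cldn7, a claudin of tight junctions, was at 16.7, 26.8 and 18.9 CPM in control 1 to 3 and at 4.98, 4.92 and 15.4 CPM in shDdr2 1 to 3. Krt8, the partner of keratin 18, was at 0.289 CPM in shDdr2 1 and at 10.05 to 30.4 CPM in the other 5 libraries. Krt7 and Krt19, keratins of simple and luminal epithelium, overlapped between the groups, with control 1 at 635 and 617 CPM and the other controls at 130 to 202 CPM. The most abundant members Krt13 and Gpx2, a glutathione peroxidase, had log2 fold changes of -0.05 each, and Psca, a surface antigen, was at -0.75 with an SE of 0.69.

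The partners and relatives of PPARG, GATA3, ELF3, KLF5 and GRHL3 had a median log2 fold change close to that of all genes, 0.04. The listed relatives of FOXA1, Foxa2 and Foxa3, are not analysed here. Of 15 tested, 0 were called, and 0 were apart between the groups, against 4.32% of all genes tested. Nothing is read from that count in so short a list. Fitted values were below 0 in 10 of the 15, and the median was -0.06, or -0.20 without shDdr2 3. Rxra, the retinoid X receptor that pairs with PPARG, had means of 139 ± 12.8 CPM for control and 156 ± 50.5 CPM for shDdr2 (SD, n = 3 each), 0.16 higher on the log2 scale (SE 0.28). The other PPAR genes, Ppara and Ppard, stood at log2 fold changes of 0.38 (SE 0.49) and -0.30 (SE 0.25). Grhl1 and Grhl2, the other grainyhead factors, were at 0.16 and -0.02, and the epithelial factors Ehf, Klf4 and Klf6 at -0.08, -0.11 and -0.27. Of 11 PPAR cofactors tested, 0 were called or apart, where 4.32% of all genes tested lay apart, and nothing is read from that count. Their median was 0.01, with 0.23 without shDdr2 1 and -0.17 without shDdr2 3.

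Genes known as PPAR targets had more fitted values above 0 than below, as did all genes tested, of which 42.9% were below 0. Of 22 tested, 0 were called, 7 had fitted values below 0 and 15 above, and the median was 0.09, against 0.04 for all genes. Without shDdr2 3 the split was 11 and 11, and without control 1 and shDdr2 1 the median was 0.02. Fabp4, Plin2 and Angptl4, which serve fatty acid binding, lipid droplets and lipase inhibition, had log2 fold changes of 0.25 (SE 0.44), -0.17 (SE 0.25) and 0.04 (SE 0.27). The most abundant, Ucp2, Fabp5 and Aqp3, were at 0.36, 0.39 and -0.18. Values were apart and higher in 4, against 2.21% of all genes: Cd36, a fatty acid transporter, at 1.28, Lpl, lipoprotein lipase, at 0.99, Pdk4 at 4.95 and Pltp at 0.47. Pdk4 and Lpl are also abundant in muscle, and the skeletal muscle markers given above were higher in the libraries labelled shDdr2. Their sum was 1165, 3736 and 482 CPM in shDdr2 1 to 3. In the same order, Pdk4 was at 6.86, 38.1 and 6.89 CPM and Lpl at 12.7, 6.82 and 7.41 CPM. The part of muscle in these values was not tested.

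Basal genes had small fitted values, mostly below 0. Of 20 tested, 0 were called or apart, where 4.32% of all genes tested lay apart, and nothing is read from that count. Fitted values were below 0 in 15 of the 20, and the median was -0.07. It was -0.21 without control 2 and 0.06, with 6 of 20 below 0, without control 3. Krt5 and Krt14 averaged 5443 ± 507 and 4885 ± 727 CPM in the controls against 5538 ± 394 and 4707 ± 343 CPM in shDdr2 (SD, n = 3). Their log2 fold changes were 0.02 (SE 0.25) and -0.05 (SE 0.26). Krt6a and Trp63 were at -0.32 (SE 0.30) and 0.08 (SE 0.22). Of 11 other transmembrane mucins, only Emcn, a mucin of endothelium, was tested, at 0.19 (SE 0.32), and Muc4, Muc13, Muc16 and Muc20 are not analysed here.

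**Figure D5:**
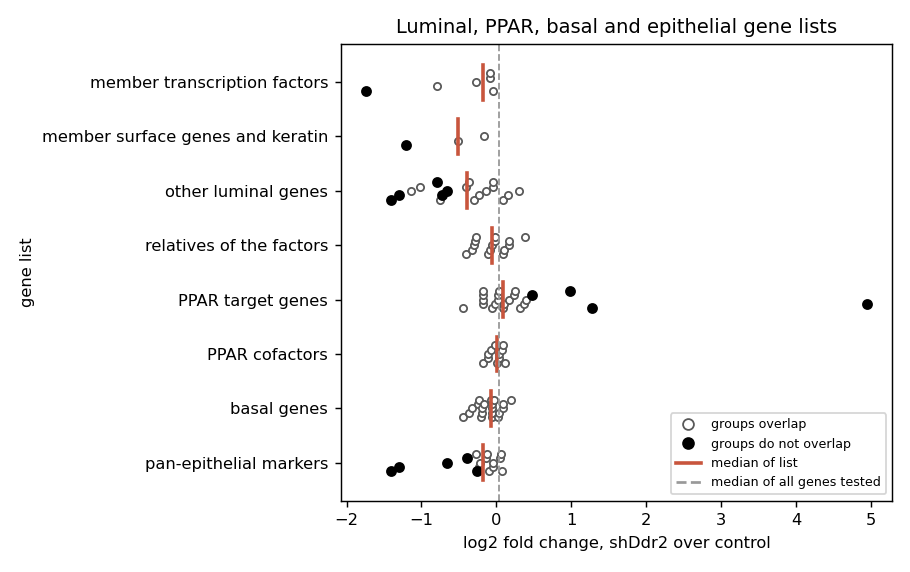
Log2 fold change of each gene tested in 8 lists (points), filled where the groups do not overlap; red lines are list medians and the dashed line is the median of all genes, 0.04. The other luminal genes have a median of -0.39, while PPAR targets, cofactors and basal genes lie around 0.

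The genes whose pattern over the 6 libraries was most like that of Pparg were sought among 12321 genes by Pearson's r of log2 CPM, as a description that includes the difference between the groups. They were Atg9b (r = 0.992), an autophagy gene, Nfkbia (0.988), the inhibitor of NF-kappaB, Nupr1 (0.983), Hbegf (0.976), a ligand of the EGF receptor, and Pyroxd1 (0.966). Hbegf was at 107, 84.5 and 100 CPM in control 1 to 3 and at 59.5, 46.2 and 66.5 CPM in shDdr2 1 to 3, and like Pparg was lowest in shDdr2 2. Nfkbia was at 290, 257 and 260 CPM and at 185, 159 and 209 CPM in the same order. All 5 had shDdr2 2 as their lowest library and control 1 as their highest, as Pparg did, which largely follows from how they were chosen.

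For Muc1 the most similar genes were Slco4a1 (r = 0.985), an organic anion transporter, Cchcr1 (0.964), Snapc2 (0.960), Ptpdc1 (0.952) and Nfkbiz (0.950), a nuclear regulator of NF-kappaB. Slco4a1 was at 110, 120 and 106 CPM in control 1 to 3 and at 62.6, 72.1 and 74.9 CPM in shDdr2 1 to 3. Nfkbiz was at 70.1, 84.4 and 71.5 CPM and at 38.0, 53.6 and 61.2 CPM in the same order. All 5 were lowest in shDdr2 1, as Muc1 was, which again largely follows from the choice. None of the 5 was among those most like Pparg.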

How the data were processed

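The authors deposited whole counts for each Entrez gene, and log2 values of the same genes. Bowtie2 2.1.0, RSEM 1.2.31, limma and the build GRCm38.p5 are named, with no role, in the submitters' processing notes, so the counts may be rounded estimates. In the deposited log2 values each library's counts were divided by its own factor and 1 was added before the logarithm: undone, all 91770 values lay within 0.05 of a whole number, and once rounded 91753 equalled the count and the 17 largest counts differed. The lowest count is 1, so genes with a 0 in any library are not analysed here.

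Counts were filtered with filterByExpr (14498 genes left), scaled by TMM and fitted with the quasi-likelihood test of edgeR 4.0.16 in R 4.3.3, two-sided, with Benjamini-Hochberg adjustment and a threshold of 0.05. CPM use TMM-scaled totals, and log2 CPM a prior count of 2. The common biological coefficient of variation was 35.3%. Exon lengths and positions are GENCODE M21 on GRCm38; 14876 Entrez numbers matched a RefSeq symbol and 419 did not. The genes and lists were chosen with earlier results of these data known. Named genes are the 9 listed, a fixed set of relatives, the 3 most abundant genes of a list and up to 5 whose groups lie apart, and the 5 most similar to Pparg and Muc1; those without a printed value are left out for length or are not reported here. Similarity used genes of an average log2 CPM of at least 1.

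Replicate numbers come from the titles. Across genes, same-numbered libraries deviated together from their group means, with r of 0.299, 0.267 and 0.253, all above 0.1. Control 3 with shDdr2 2, of unlike numbers, gave 0.254, so these values do not settle that the numbers are pairs. The main fit, with its fold changes, SEs and intervals, used no pairing. Pairing entered only the replicate block and the log2 differences by replicate number. Within groups, chi-square per degree of freedom between libraries was 25.3 to 234, so none agreed within counting noise.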

Additional observations from a re-analysis of the deposited data

How the results depend on the processing

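Alternatives were DESeq2 1.42.0, upper-quartile scaling, library totals, no filter, a stricter filter (5 CPM in 3 libraries), limma 3.58.1 with voom weights, limma on the log2 values as deposited, the replicate block, each library left out, control 1 and shDdr2 1 left out together, and the epithelial marker mean. DESeq2 called 6 genes lower and 34 higher, where edgeR called 0 and 0; every other alternative fitted over all genes, the replicate block included, called 0 and 0 (the epithelial marker mean was applied to the 9 genes only), and the cause was not tested. The count of the 9 genes with a fitted value below 0 was 9 with the replicate block and 5 to 9 with any 1 library left out, the 5 being without shDdr2 1, and 4 without control 1 and shDdr2 1 together. The count apart and lower was 2 to 3 with any 1 library left out, 2 without control 1 and shDdr2 1 together and 2 with the replicate block. Of all genes tested, 4.20% to 12.8%, 20.5% and 2.11% were apart and lower in these runs, in the same order. With all 6 libraries, the count apart and lower was 3 with DESeq2, without a filter and on the deposited log2 values. It was 2 with upper-quartile scaling, library totals, the stricter filter and voom. For these runs the share over all genes was not computed. With the replicate block, the log2 fold change was -1.81 for Pparg, -1.23 for Muc1 and -0.81 for Elf3. Upk1b was at -0.40 with the block, -0.48 with voom and -0.52 on the deposited values, and Foxa1 at -0.15, -0.16 and -0.15. Leaving libraries out for the list medians and the epithelial marker mean was chosen after seeing the data. The sign of Gata3, Foxa1, Klf5 and Grhl3 changed when scaled to the epithelial marker mean. The 5 genes most similar to Pparg and to Muc1 were the same genes with a prior count of 0.5 (5 of 5 for each). With 3 libraries a group, the median gene's log2 fold change is known to within 0.76 either way (95% interval).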
